A study of Mus musculus with 8 samples.

Results

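Integrins and laminins, the receptors and a main ligand of cell adhesion to basement membrane, were followed across 6 RNA-seq libraries of differentiating mouse embryonic stem cells. The members are all rows of the expression table whose symbol is Itga or Itgb followed by a number or by 1 of the letters d, e, l, m, v and x, or Lama, Lamb or Lamc followed by a number, which gave 36 of 22558 genes. They comprise 17 integrin alpha subunits, 8 integrin beta subunits, 5 laminin alpha chains, 3 beta chains and 3 gamma chains. Itga2b and Itgb2l, whose symbols go on after the number, were left out of the members. The cells (R1 and R1/E, mouse embryonic stem cell lines kept on feeder cells before differentiation) were grown as embryoid bodies, floating aggregates in which derivatives of all germ layers form. RNA came from a control culture and from cells in which doxycycline induced overexpression of Oct6, the POU domain factor encoded by Pou3f1, at day 2, day 4 and day 6, with 1 library per arm and day. An Oct6 ChIP library of day 4 from overexpressing cells gave a list of 7979 peaks. Whether control cells also received doxycycline is not given in the labels, nor whether both arms are of the same line, nor what the prefix fbs in the titles stands for, so effects of the drug, of the line and of Oct6 itself cannot be told apart.

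An integrin is a heterodimer of 1 alpha and 1 beta subunit that spans the plasma membrane, binds matrix outside the cell and couples to actin or intermediate filaments inside it. Laminins are trimers of an alpha, a beta and a gamma chain that polymerise into the sheet on which a basement membrane is built. In the early embryo this sheet lies beneath the epiblast and the visceral endoderm, and later beneath the neuroepithelium, where integrins with the Itgb1 subunit are its main receptors.

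Levels are given as FPKM, fragment numbers corrected for the length of the transcript and the size of the library, and differences as log2(FPKM + 1) of the induced minus the control library. A difference is counted from 2-fold on this scale, where at least 1 of the compared libraries reaches 1 FPKM. Pou3f1 had 64.3, 10.1 and 4.76 FPKM in control and 312, 222 and 86.8 in induced cells at days 2, 4 and 6. All 6 genes of the pluripotent marker list were detected in every library. Their summed FPKM was 1860, 1310 and 269 in control and 894, 1090 and 354 in induced cells at days 2, 4 and 6. At day 2, 3 of the 6 were at least 2-fold lower in induced cells and 0 higher, while at days 4 and 6, 2 were higher and 0 lower. The part of this difference in the values of integrins and laminins was not tested. Relative depth was the inverse of the most common FPKM ratio to control day 2, over weak genes under 0.3 FPKM in both libraries. With control day 2 set to 1, it was 1.47 in control day 4 and between 0.688 and 0.801 in the other 4 libraries. With 1 library per arm and day no difference within a day has a replicate check, and tests across days measure the spread of an effect between days, not between cultures.

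Of the 36 members, 23 reached 1 FPKM in some library, and 6 of them (Itga6, Itgb1, Itgb5, Lama5, Lamb1 and Lamc1) had 10 FPKM or more in all 6. The other 13 stayed below 1 FPKM throughout: Itga2, Itga7, Itga10, Itga11, Itgad, Itgae, Itgal, Itgam, Itgax, Itgb2, Itgb6, Lama3 and Lamc3. Their highest value was 0.942, for Lama3 in induced cells at day 2. Among them are several leukocyte integrin subunits. Itgax, the CD11c subunit of myeloid cells, was listed at 0 in all 6 libraries, and Itgb2, a beta subunit of leukocyte integrins, did not exceed 0.152 FPKM. The lymphocyte subunit Itgb7 is not among them, with 2.99 FPKM in control day 2. Of the white blood cell list, 5 of 6 genes are in the table, and their summed FPKM was between 3.19 and 10.7 in control and between 4.66 and 22.8 in induced libraries. That sum came mostly from Laptm5, with 5.47 FPKM in control and 16.9 in induced day 2, and Coro1a, with 2.38 to 5.8 in the 6 libraries. The other 3 stayed below 1 FPKM, and Ptprc, the common leukocyte antigen, did not exceed 0.0426.

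**Figure D1:**
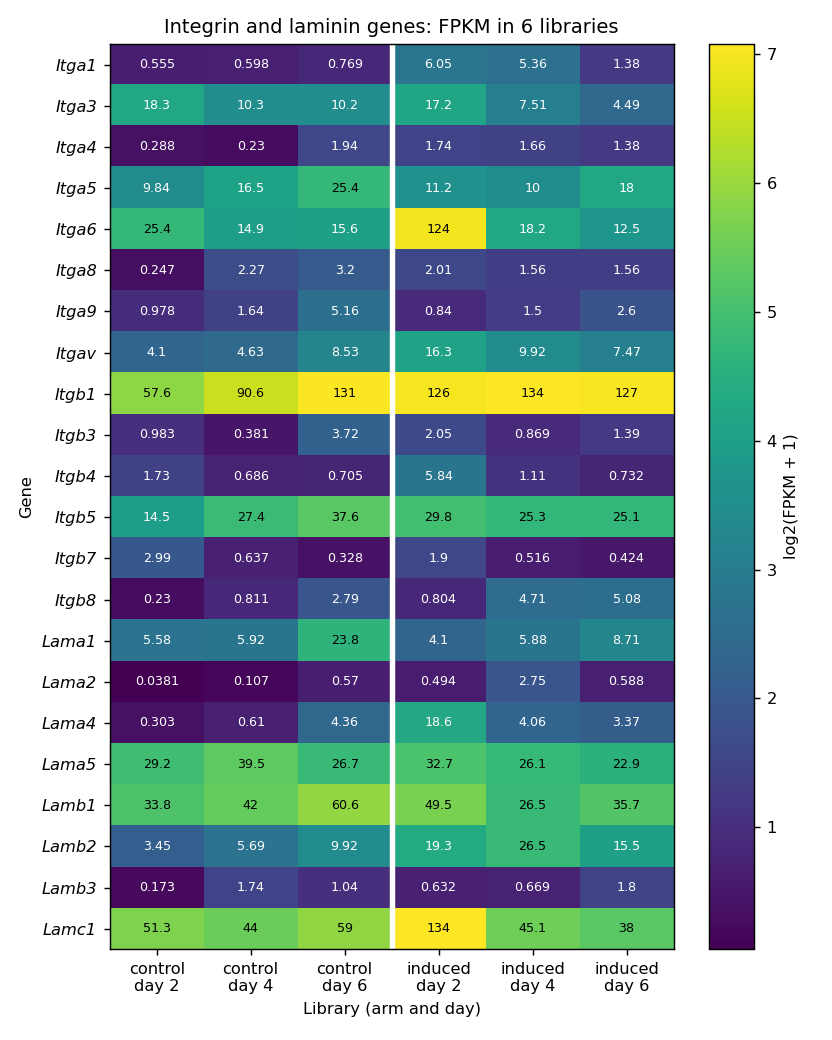
FPKM of 22 members that reached 1 FPKM, as rows, in the 3 control and 3 induced libraries, as columns, with log2(FPKM + 1) as colour and the FPKM printed in each cell. Induced day 2 stands out for Itga6 (124 FPKM), Lama4 (18.6) and Lamc1 (134), and control day 6 for Lama1 (23.8).

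At day 2, integrin and laminin transcripts were mostly higher in induced cells. Of 19 members reaching 1 FPKM there, 11 were higher by 2-fold or more and 0 lower, where 9.72% and 1.83% of all expressed genes were. The median difference was 1.12, against 0.17 over all expressed genes. By day 4 the count was 6 higher and 0 lower of 21 members (background 6.09% and 2.11%), with a median of 0.04 against 0.1. At day 6 it was 0 higher and 2 lower of 20 (background 3.37% and 2.1%), with a median of -0.3 against 0.06. No member was at least 2-fold higher, or lower, on all 3 days, where 1.03% and 0.0732% of expressed genes were.

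**Figure D2:**
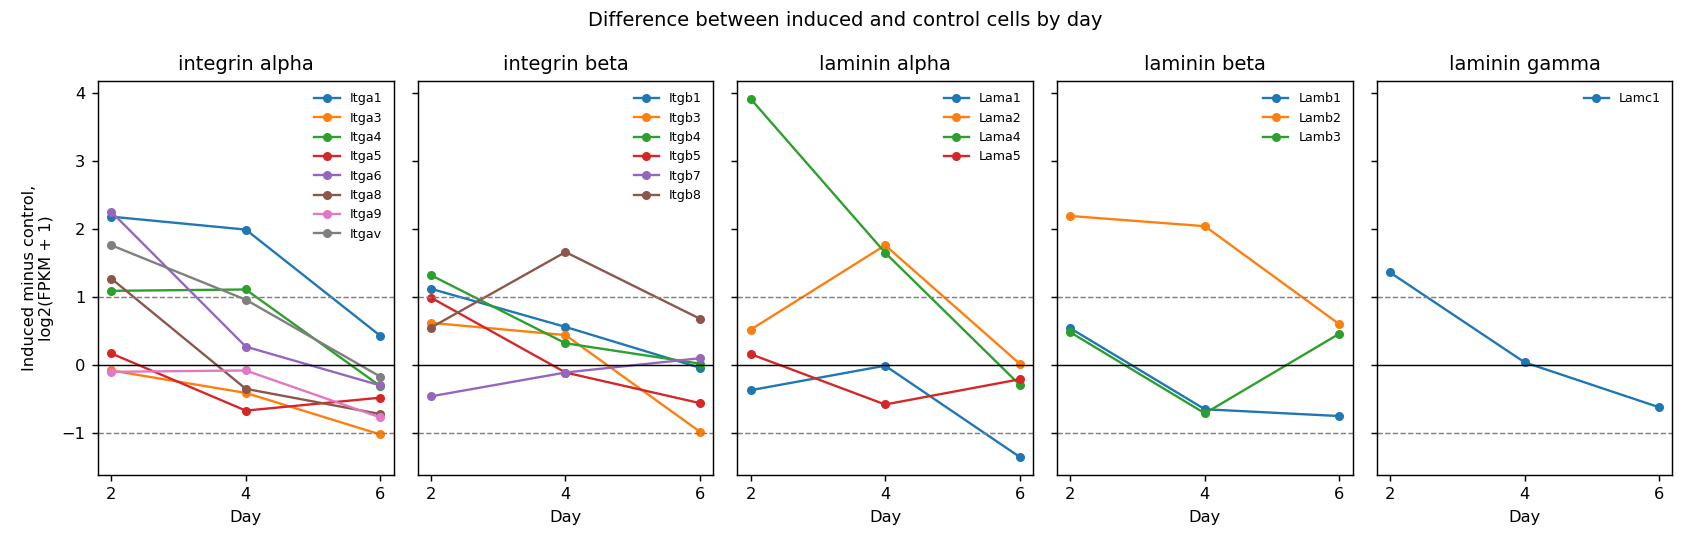
Difference of log2(FPKM + 1), induced minus control, for 22 members that reached 1 FPKM, by day and by class, with dashed lines at 2-fold. Lama4 starts highest, at 3.91, and most lines run downwards from day 2 to day 6, with Lama1 ending lowest at -1.35.

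Some genes of the fibroblast feeder list differed in the same libraries. At day 2, 2 of 7 expressed genes were at least 2-fold higher and 0 lower, at day 4 2 of 4 higher and 1, Thy1, lower, and at day 6 0 of 7 higher and 5 lower. All 7 reached 1 FPKM, none was listed at 0, and their summed FPKM was 11.1, 9.28 and 109 in control and 95.8, 41.4 and 35.4 in induced cells at days 2, 4 and 6. Col1a2, a chain of type I collagen, made up most of the induced sum at days 2 and 4, with 80.2 and 30.4 FPKM, while its partner Col1a1 had 4.13 and 1.46. The neuron list, 5 of whose 6 genes are in the table and reached 1 FPKM, summed to 81.1, 65.3 and 32 FPKM in control and 148, 116 and 123 in induced cells. Those at least 2-fold higher were 2 of 4 expressed genes at day 2, 3 of 5 at day 4 and 5 of 5 at day 6, with 0 lower. Most of the sum was Stmn2 and Tubb3, and Stmn2 differed by 0.44 at day 2. The neural progenitor list summed to 140, 51.9 and 50.2 FPKM in control and 103, 107 and 118 in induced cells. Its day 2 sums were mostly Sox2, with 135 and 66.7 FPKM. Of its expressed genes, 2 of 5 were at least 2-fold higher at day 2 and 1, Sox2, lower. At day 4, 4 of 6 were higher and 0 lower. At day 6 only 1 of 6 was higher, Fabp7, with 58.2 FPKM in induced against 2.31 in control cells, and 0 lower. In bulk RNA, fewer cells of a type and less RNA per cell cannot be told apart. The part of any of these cell types in the differences of integrins and laminins was not tested.

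Oct6 peaks are given with some of the genes they lie at, and a gene described without a peak may still have one. Itga8 has peaks in introns 3 and 9 and Itga9 in intron 15, all of score 10.1. Lama4 and Lamb2 have no peak inside the gene or within 100 kb of the start site. Each peak is 133 bases wide, and its score is the authors' own and only ranks peaks within the list. Scores run from 7.6 to 145.6 with a median of 11.4. Only 1.3% of all peaks score below 10.1 and 41.3% score at or below it, so 10.1 is near the low end. Sequences were read from the mm9 assembly (NCBIM37) on the plus strand, 5′ to 3′, and capitals mark matches, on either strand, to the octamer ATGCAAAT, to its looser form ATGCNAAT, which includes the octamer, or to ATGCAT, a palindrome that POU proteins bind as dimers when copies adjoin. The octamer occurred in 4.19% of all peaks and in 1.07% of flanking windows of the same width, ATGCNAAT in 6.6% and 2.07%, and ATGCAT in 19.5% and 4.96%. A match is a description of letters and not evidence of a bound site.

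Laminin alpha chains decide which receptors a laminin binds, and their makeup differed between the arms. Lama4, a chain of vessel and mesenchymal basement membranes, had 0.303, 0.61 and 4.36 FPKM in control and 18.6, 4.06 and 3.37 in induced cells at days 2, 4 and 6. Its induced day 2 value lay above the other 5 libraries, while at day 6 the control value was the higher one. The FPKM ratio of induced to control was 61.4 at day 2 and 6.65 at day 4, and the log2 differences were 3.91, 1.65 and -0.29. Lama4 made up 32.8% of the summed FPKM of laminin alpha chains in induced day 2, against 0.841% in control day 2, and 10.4% against 1.31% at day 4.

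Lama2, the alpha chain of muscle and peripheral nerve basement membranes, had 0.0381, 0.107 and 0.57 FPKM in control and 0.494, 2.75 and 0.588 in induced cells. It exceeded 1 FPKM only in induced day 4, where the log2 difference was 1.76. The gene lies on chr10:26701094-27336748 (minus strand, mm9) and holds 2 Oct6 peaks, both intronic, of score 12.7 in intron 1 and 11.4 in intron 22 of its longest coding transcript. The first, at chr10:27213884-27214016, is shown because it is the higher one in a gene that differed at the day of the ChIP, and it holds 1 match to ATGCAT.
Lama2 intron 1 peak: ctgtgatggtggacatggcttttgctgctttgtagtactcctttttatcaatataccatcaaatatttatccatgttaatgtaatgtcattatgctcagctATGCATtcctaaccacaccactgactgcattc

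Lama1, the alpha chain of the first basement membranes of the embryo, had 5.58, 5.92 and 23.8 FPKM in control and 4.1, 5.88 and 8.71 in induced cells. Only control day 6 stood apart, and the log2 difference of -1.35 on that day was the lowest of any member on any day. Lama1 made up 42.9% of the alpha chain FPKM in control day 6 and 24.4% in induced day 6. The visceral and parietal endoderm list, whose cells deposit such membranes, had summed FPKM of 49.9, 244 and 296 in control and 17.3, 55.5 and 86.4 in induced cells. At day 6, 8 of its 14 expressed genes were at least 2-fold lower in induced cells and 0 higher. None of the list was listed at 0. At day 4, 9 of 14 were lower and 1, Plat, higher (8.02 against 1.43 FPKM), and Lama1 differed by -0.01. The part of these cells in the day 6 difference of Lama1 was not tested.

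Lama5, the broadly expressed chain of embryonic basement membranes, was the most abundant alpha chain in all 6 libraries. It had 29.2, 39.5 and 26.7 FPKM in control and 32.7, 26.1 and 22.9 in induced cells, and no day reached a 2-fold difference. The values of both arms overlap. The small difference at day 2 (0.16) changed sign under median ratio scaling. An Oct6 peak of score 10.1 lies in intron 1, 3463 bases from the start site, at chr2:179957035-179957167, in a gene spanning chr2:179911078-179960564 on the minus strand. It is shown as a peak near a start site without a difference in expression and holds no match to the letters searched.
Lama5 intron 1 peak: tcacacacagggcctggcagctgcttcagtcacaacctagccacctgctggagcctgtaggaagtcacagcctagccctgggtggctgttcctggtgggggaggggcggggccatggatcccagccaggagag

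Of the beta chains, Lamb2, a chain of synaptic, glomerular and vessel basement membranes, had 3.45, 5.69 and 9.92 FPKM in control and 19.3, 26.5 and 15.5 in induced cells. Every induced library lay above every control library, as was so for 12.6% of all expressed genes. The log2 differences were 2.19, 2.04 and 0.6, and with the days as replicates the mean difference was 1.61 ± 0.34 (SE), with an adjusted p of 0.144 (limma over all genes, day as a block). Lamb2 made up 9.21%, 11.5% and 13.9% of the beta chain FPKM in control and 27.8%, 49.4% and 29.3% in induced cells. Lamb1, the chain of the early embryonic laminins, had 33.8, 42 and 60.6 FPKM in control and 49.5, 26.5 and 35.7 in induced cells, so that its order between the arms differed between day 2 and the later days and no difference reached 2-fold. At day 4 both beta chains had 26.5 FPKM in induced cells. Lamb3, a chain of epithelial anchoring laminin, stayed at or below 1.8 FPKM.

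**Figure D3:**
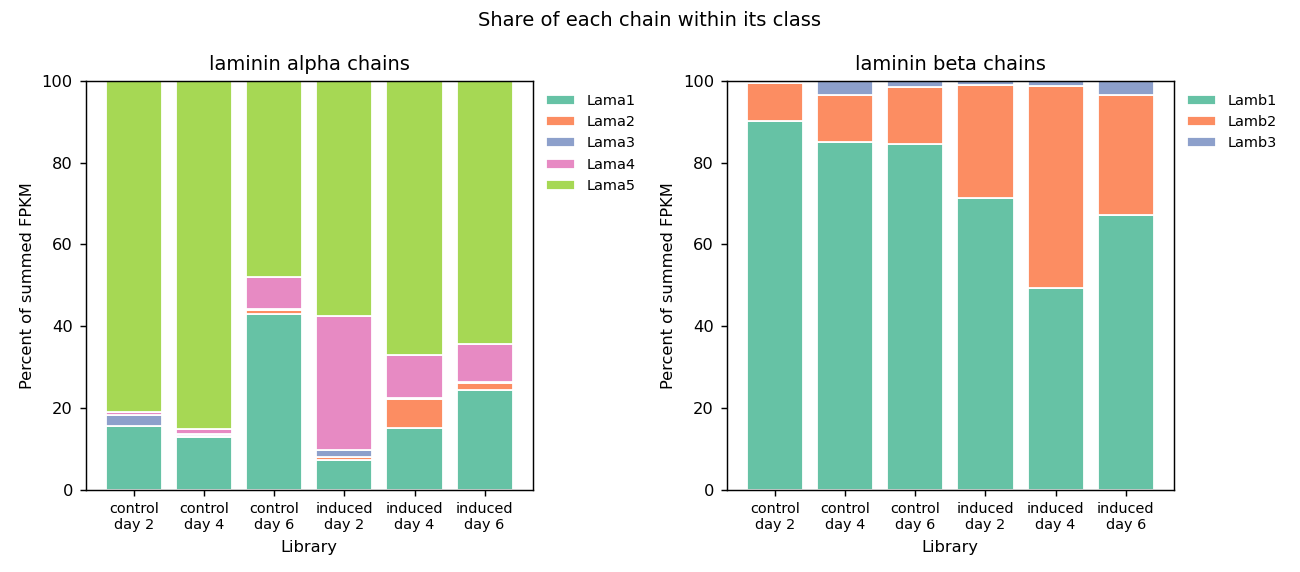
Percent of the summed FPKM of laminin alpha chains (left) and beta chains (right) that each gene makes up, by library. Lama4 takes 32.8% of the alpha chains in induced day 2, Lama1 takes 42.9% in control day 6, and Lamb2 takes 27.8% to 49.4% in induced against 9.21% to 13.9% in control libraries.

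Lamc1, the gamma chain of nearly all laminins, had 51.3, 44 and 59 FPKM in control and 134, 45.1 and 38 in induced cells. The induced day 2 library stood apart from the other 5. The log2 differences were 1.36, 0.04 and -0.62, the day 4 value changing sign under both scalings tried. Lamc1 holds 2 peaks of score 10.1 in intron 1, whose centres lie 24869 and 54241 bases from the start site. The gene spans chr1:155066052-155179916 on the minus strand.

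Among the laminin receptors, Itga6, the alpha subunit that pairs with Itgb1 or Itgb4, had 25.4, 14.9 and 15.6 FPKM in control and 124, 18.2 and 12.5 in induced cells. As for Lamc1, induced day 2 was far above the other 5 libraries, among which the arms overlapped. The FPKM ratio was 4.9 at day 2, and the log2 differences were 2.25, 0.27 and -0.3. Itga6 made up 68.2% of the integrin alpha FPKM in induced day 2 and between 21.5% and 40.6% in the other libraries. Its nearest peak, of score 10.1, lies 2993 bases upstream of the start site at chr2:71580614-71580746, the gene spanning chr2:71583673-71696473 on the plus strand. It is shown as the upstream peak of the alpha subunit with the highest FPKM of its class in induced day 2, and it holds no match.
Itga6 upstream peak: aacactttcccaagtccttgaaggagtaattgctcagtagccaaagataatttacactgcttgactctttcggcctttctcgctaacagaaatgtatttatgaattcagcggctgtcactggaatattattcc

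Itgb4, the hemidesmosome subunit that pairs with Itga6, had 1.73, 0.686 and 0.705 FPKM in control and 5.84, 1.11 and 0.732 in induced cells. As with Itga6, only induced day 2 stood apart, with a log2 difference of 1.32. Itga3, another laminin receptor subunit, had 18.3, 10.3 and 10.2 FPKM in control and 17.2, 7.51 and 4.49 in induced cells. It was lowest in induced day 6, where the log2 difference was -1.02, close to the 2-fold limit. Itga7, the laminin receptor subunit of muscle, did not exceed 0.776 FPKM.

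Itgb1, the common beta subunit, made up 73.7% to 80.5% of the integrin beta FPKM in all 6 libraries. It had 57.6, 90.6 and 131 FPKM in control and 126, 134 and 127 in induced cells. The induced libraries were alike, while the control libraries were ordered by day and reached the induced level at day 6. The log2 differences were 1.12, 0.56 and -0.04. A peak of score 13.9 lies in intron 1, its centre 18840 bases from the start site.

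Itga1, the subunit of a receptor for collagens and laminins, had 0.555, 0.598 and 0.769 FPKM in control and 6.05, 5.36 and 1.38 in induced cells. The groups do not overlap, and the FPKM ratios were 10.9, 8.98 and 1.79. With the days as replicates the difference was 1.53 ± 0.38 (SE), with an adjusted p of 0.158 in the same limma fit. Itga1 and Lamb2 were 2 of 23 members whose induced libraries all lay above the control ones, while 12.6% of all expressed genes did so and 2.38% lay wholly below, so the share of members is near the background. Itga1 holds 4 intronic peaks, in a gene spanning chr13:115748287-115892172 on the minus strand. They have scores of 11.4 in intron 11, 19 in intron 22, 15.2 in intron 24 and 10.1 in intron 28, and 96.7% of all peaks score no higher than that in intron 22. The centres lie 101818 to 137470 bases from the start site of Itga1 and 32453 to 68105 bases upstream of that of Itga2, the neighbouring collagen receptor gene, which had at most 0.784 FPKM, in induced day 4. The peak of highest score (chr13:115765075-115765207), which holds 1 match to ATGCAT, and the only peak of any member with the octamer (chr13:115790288-115790420) are shown.
Itga1 intron 22 peak: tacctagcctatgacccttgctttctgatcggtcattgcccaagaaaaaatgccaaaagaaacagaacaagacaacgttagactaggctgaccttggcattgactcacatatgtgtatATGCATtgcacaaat
Itga1 intron 11 peak: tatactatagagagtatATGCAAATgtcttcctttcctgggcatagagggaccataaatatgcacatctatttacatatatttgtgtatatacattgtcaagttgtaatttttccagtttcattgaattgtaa

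**Figure D4:**
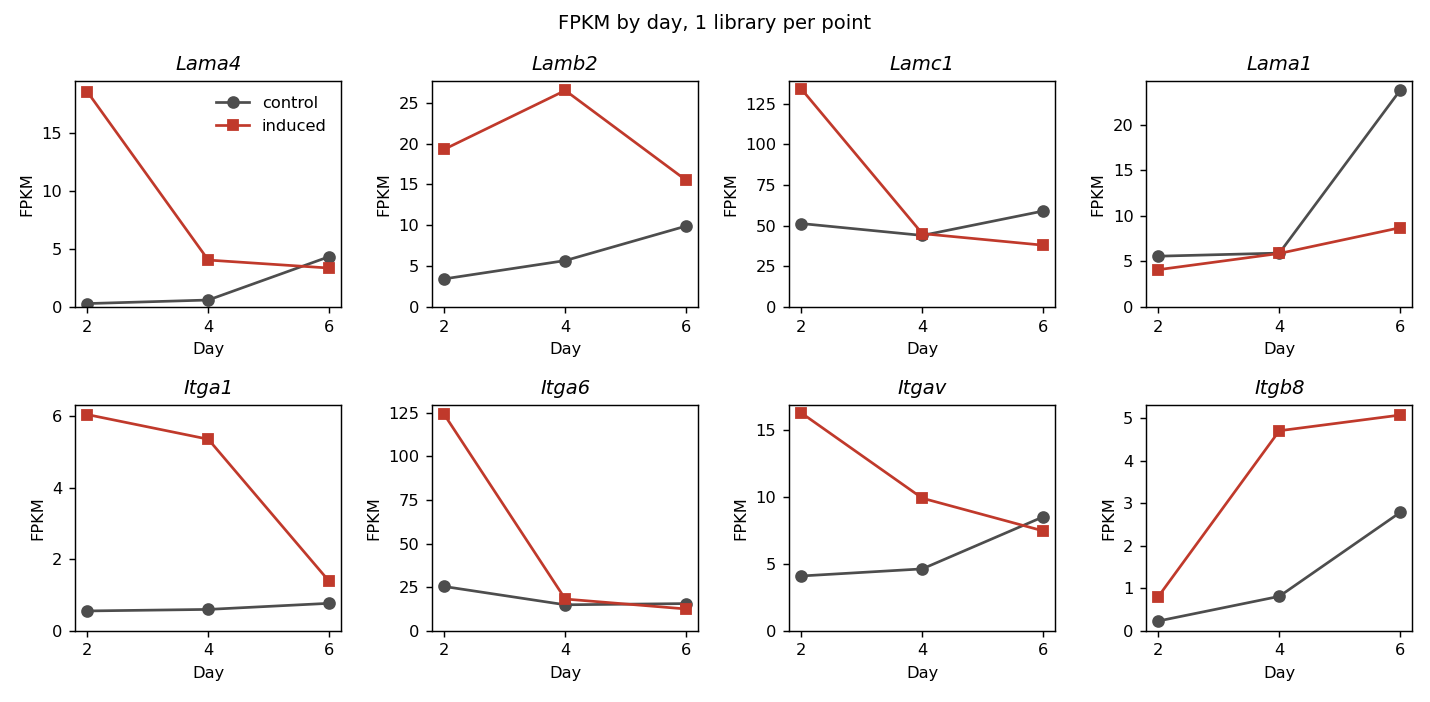
FPKM of 8 members by day in control (circles) and induced (squares) cells, 1 library per point, each axis starting at 0. Lama4, Lamc1 and Itga6 are high in induced day 2 only, Lamb2 and Itga1 are higher in induced cells on each day, Itgav is apart at days 2 and 4, Itgb8 is higher on each later day in both arms, and Lama1 is high in control day 6 only.

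Itgav forms receptors for vitronectin, fibronectin and latent TGF-beta with several beta subunits. It had 4.1, 4.63 and 8.53 FPKM in control and 16.3, 9.92 and 7.47 in induced cells, so that the arms were apart at days 2 and 4 and near each other at day 6. The log2 differences were 1.76, 0.96 and -0.17, and the FPKM ratio at day 4 was 2.15. A peak of score 11.4 lies 328 bases upstream of the start site at chr2:83564160-83564292, the gene spanning chr2:83564554-83647073 on the plus strand, and 3 others lie 54551 to 74688 bases upstream. The promoter peak is shown for its place and holds no match. The distal peak at chr2:83509283-83509415, of score 16.5, holds 4 matches to ATGCAT, 3 of them overlapping, within a repeat.
Itgav promoter peak: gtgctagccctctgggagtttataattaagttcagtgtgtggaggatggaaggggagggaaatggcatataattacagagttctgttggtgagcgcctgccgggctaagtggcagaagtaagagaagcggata
Itgav distal peak: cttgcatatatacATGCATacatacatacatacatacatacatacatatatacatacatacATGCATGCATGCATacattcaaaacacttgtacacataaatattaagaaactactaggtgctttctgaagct

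Itgb8, which pairs with Itgav and activates latent TGF-beta, had 0.23, 0.811 and 2.79 FPKM in control and 0.804, 4.71 and 5.08 in induced cells. On each day the induced value was the higher one, and within both arms it was higher on each later day. The log2 differences were 0.55, 1.66 and 0.68, giving a mean of 0.96 ± 0.27 (SE) with an adjusted p of 0.17 (limma, day as a block). The rise with day common to both arms passed limma's test, at 0.42 ± 0.08 (SE) per day with an adjusted p of 0.0316, though not without the filter on low values (0.0592) or with a minimum of 5 FPKM (0.0544). The gene spans chr12:120396495-120477275 on the minus strand and has 2 peaks. A peak of score 16.5, at or above 93.7% of all peaks, overlaps exon 1 outside the coding sequence, with its centre 689 bases from the start site, and holds no match. Another of score 11.4 lies in intron 1 at chr12:120454634-120454766 and is shown for its 2 separate copies of ATGCAT.
Itgb8 intron 1 peak: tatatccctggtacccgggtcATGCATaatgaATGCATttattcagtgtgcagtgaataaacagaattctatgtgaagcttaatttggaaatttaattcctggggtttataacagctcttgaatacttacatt

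Itgb5 and Itgb3, further partners of Itgav, did not reach a 2-fold difference on the log2(FPKM + 1) scale on any day. Their plain FPKM ratios of induced to control were 2.05, 0.923 and 0.668 for Itgb5 and 2.09, 2.28 and 0.373 for Itgb3. Itgb5, a vitronectin receptor subunit, had 14.5, 27.4 and 37.6 FPKM in control and 29.8, 25.3 and 25.1 in induced cells, with a difference of 0.99 at day 2, just short of 2-fold on the log2 scale. Itgb3, the beta subunit of the platelet receptor and of a vitronectin receptor, had 0.983, 0.381 and 3.72 FPKM in control and 2.05, 0.869 and 1.39 in induced cells. It was highest in control day 6, with a log2 difference of -0.98. Itga2b, its platelet partner and no member by the rule, had 0.399, 0.54 and 3.13 FPKM in control and 0.419, 0.466 and 2.11 in induced cells. At day 6 the erythroid and platelet list summed to 1540 FPKM in control and 159 in induced cells, against at most 1.77 before, mostly embryonic globins, and 6 of its 9 genes were listed at 0 in some library. The platelet genes Pf4, Gp9 and Gp1bb did not exceed 0.0675, 0.177 and 0.496 FPKM. The part of these cells in the Itgb3 values was not tested.

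The fibronectin receptor subunit Itga5 had 9.84, 16.5 and 25.4 FPKM in control and 11.2, 10 and 18 in induced cells. Itga4, a receptor subunit for fibronectin and Vcam1, had 0.288, 0.23 and 1.94 FPKM in control and 1.74, 1.66 and 1.38 in induced cells, and its differences were 1.09, 1.11 and -0.31. Itga8, the nephronectin receptor subunit, had 0.247, 2.27 and 3.2 FPKM in control and 2.01, 1.56 and 1.56 in induced cells. Both Itga4 and Itga8 were thus higher in induced cells at day 2 and higher in control at day 6. Itga9, a tenascin and Vcam1 receptor subunit, had 0.978, 1.64 and 5.16 FPKM in control and 0.84, 1.5 and 2.6 in induced cells. Itgb7, the partner of Itga4 and Itgae in lymphocytes, had 2.99, 0.637 and 0.328 FPKM in control and 1.9, 0.516 and 0.424 in induced cells. It was highest at day 2 in both arms, and no member of the lymphocyte pair Itgb7 and Itgae differed 2-fold between arms.

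Across the 3 days together, limma's test of the difference between the arms called 0 of 23 members after Benjamini-Hochberg adjustment, and 3 of 13661 genes (0.022%), 2 higher (0.0146%) and 1 lower (0.00732%). At an unadjusted p under 0.05 the members were Itga1, Itgb8 and Lamb2, all higher, 3 of 23 where 16.3% of all genes were higher at that level and 4.72% lower. The share of members was thus not above the background. The median estimate over the members was 0.26, against 0.1 over all genes.

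A steady change of the difference with day was called for 0 members and 0 of all 13661 genes. At an unadjusted p under 0.05, 10 of 23 members had a changing difference (background 7.7%): it was falling for 10, among them Itga1, Itga6, Itga8, Itgav, Itgb1, Itgb5, Lama4, Lamb2 and Lamc1, and rising for 0, where it was falling for 6.02% and rising for 1.68% of all genes. As the days are evenly spaced, the estimates rest only on the differences at day 2 and day 6 already given. They were negative for 21 of 23 members (91.3%) and for 58.2% of all genes, with medians of -0.33 and -0.03 per day. The steepest was Lama4, at -1.05 ± 0.22 (SE) per day with an adjusted p of 0.532 (limma), and Itgb7, at 0.14, and Itgb8, at 0.03, were the members with a positive estimate.

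The day trend common to both arms was called for 5 of 23 members and for 15.1% of all genes. Itga5, Itga9 and Itgb8 rose and Itga3 and Itgb7 fell with day, where 10.2% of all genes rose and 4.96% fell. In limma's fit the trend per day was 0.24 ± 0.06 (SE) for Itga5 (adjusted p 0.0468) and 0.33 ± 0.07 for Itga9 (0.0336). It was -0.31 ± 0.07 for Itga3 (0.0372) and -0.33 ± 0.08 for Itgb7 (0.0446). At an unadjusted p under 0.05 there were 8 members, 4 in each direction, where 36.7% of all genes passed. None of the 5 adjusted calls held when weakly expressed genes were tested too, with adjusted p between 0.0592 and 0.0749. The Itga5 call was also lost under both other scalings (0.0617 and 0.0599) and in a fit without a mean trend (0.0573), and that of Itga9 with a minimum of 5 FPKM (0.0781).

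Within the control arm, day 6 against day 2 gave 12 of 21 members at least 2-fold higher (background 17.2%) and 1, Itgb7, lower (6.73%). Lama4 (2.04), Lama1 (1.91), Itga8 (1.75) and Itga9 (1.64) differed most. Within the induced arm the same comparison gave 1 of 22 higher, Itgb8 (background 7.22%), and 8 lower (5.35%): Itga6, Lama4, Itgb4, Lamc1, Itga3, Itga1, Itgav and Itgb7. Itga6 had the largest such difference, -3.21, followed by Lama4 with -2.17. The median over members was 1.19 in control and -0.41 in induced cells, against 0.22 and 0.09 over all genes. From day 2 to 4, 3 of 17 members were higher and 1 lower in control cells (background 9.63% and 4.65%), and 2 of 22 higher and 5 lower in induced cells (2.73% and 2.36%). From day 4 to 6 the counts were 6 and 0 of 19 in control (6.15% and 2.97%), and 0 and 2 of 22 in induced cells (2.98% and 2.1%). In the induced arm more members were lower over the earlier interval, and in the control arm more were higher over the later one. These comparisons use the same libraries as those between the arms. Lists of other cell types also stood apart in control day 6: all 5 cardiac muscle genes and 6 endothelium genes reached 1 FPKM, summing to 2.13, 14.1 and 191 and to 11.7, 10.5 and 41.3 FPKM in control, and to 4.91, 3.69 and 9.42 and to 7.47, 5.01 and 15.9 in induced cells, and their part in these counts was not tested.

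Partners of laminin in the basement membrane were mostly lower in induced cells where they differed. On days 2, 4 and 6, the counts past 2-fold among 11 expressed genes of that list were 1, 0 and 0 higher and 0, 3 and 3 lower. The 3 lower genes of day 4 and of day 6 were not the same 3. Each set is 27.3% of the list, against 2.11% of all genes at day 4 and 2.1% at day 6. Col4a1 and Col4a2 were in both sets, and Nid1 only in that of day 6. The higher gene at day 2 is 9.09% against 9.72%. Sparc, a collagen-binding matrix protein, was the one higher at day 2, with 109 against 49.2 FPKM. Col4a1 and Col4a2, the chains of the main type IV collagen, had 6.74 against 23.4 and 4.09 against 10.2 FPKM at day 4, and 29.2 against 70.1 and 14.7 against 35.4 at day 6. Nid1, which links laminin to type IV collagen, had 7.19 against 19.1 FPKM at day 6. List medians were 0.4, -0.14 and -0.69. In limma's test of the arms 0 of 11 were called, with 3 lower and 0 higher at an unadjusted p under 0.05, where 4.72% of all genes were lower and 16.3% higher. The common day trend, fitted as 1 slope for both arms and not tested within each, was called as rising for 4 of 11, where 10.2% of all genes rose.

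Other integrin ligands were largely higher in induced cells at day 2, with 8 of 14 expressed genes past 2-fold (57.1%, against 9.72% of all genes). On day 4 there were 4 of 14 (28.6% against 6.09%) and on day 6 1 of 16 (6.25% against 3.37%), while 0, 0 and 4 were lower, the last being 25% against 2.1%. Spp1, osteopontin, a ligand of Itgav and Itga9 receptors, had 340, 90.6 and 41.1 FPKM in induced against 141, 15.9 and 7.71 in control cells. Npnt, nephronectin, the ligand of Itga8, had 4.95, 3.69 and 2.48 against 0.603, 0.68 and 2.96. Nov, a CCN family matrix protein, had 9.72, 4.24 and 1.32 against 1.4, 0.0928 and 0.178, while its relative Cyr61 had 19.7, 26.3 and 21.5 against 2.92, 52.4 and 46.5. Spp1 and Nov were thus higher in induced cells on each day, and Cyr61 and Npnt changed order between the arms. List medians were 1.07, 0.35 and -0.08, and limma called 0 of 16 between the arms, with 3 higher and 0 lower at an unadjusted p under 0.05 (background 16.3% and 4.72%).

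Integrin adhesion adaptors and kinases, which join the receptor tails to actin, had 3 of 18 expressed genes past 2-fold on day 2 (16.7%, against 9.72% of all genes), 1 of 17 on day 4 (5.88% against 6.09%) and 0 of 18 on day 6 (background 3.37%), all of them higher. The higher ones were Parva and Parvb, the actin-binding parvins, and Fermt2, the kindlin that activates integrins. Parva had 15.8, 14.3 and 11.8 FPKM in induced against 1.21, 4.59 and 14.3 in control cells, and Parvb had 15.8 against 4.85 and Fermt2 64.4 against 30.2 at day 2. Ilk, the integrin-linked pseudokinase that binds the parvins, had 48.6 against 25 FPKM at day 2, a difference of 0.93. List medians were 0.47, 0.03 and -0.28, and limma called 0 of 19 between the arms, with 3 higher and 1 lower at an unadjusted p under 0.05 (background 16.3% and 4.72%).

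The list of netrins, which share the laminin N-terminal fold, and of the dystroglycan complex, another laminin receptor, had 2 of 9 expressed genes past 2-fold on day 2 (22.2%, against 9.72% of all genes), 2 of 10 on day 4 (20% against 6.09%) and 0 of 8 on day 6 (background 3.37%), all of them higher. Ntng2, a membrane-anchored netrin, had 3.3, 1.28 and 0.784 FPKM in induced against 0.0345, 0.0775 and 0.199 in control cells. Sgce, the epsilon sarcoglycan, had 5.05 against 1.45 FPKM at day 2, where Sgcb had 4.74 against 1.91. Sgcd, the delta sarcoglycan, had 1.06 against 0.0146 FPKM at day 4. List medians were 0.4, 0.24 and 0.12, and limma called 0 of 10 between the arms, with 3 higher and 0 lower at an unadjusted p under 0.05 (background 16.3% and 4.72%).

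Oct6 peaks were about as frequent at the start sites of integrin and laminin genes as at those of other genes. A peak centre within 10 kb of the annotated start was found for 5 of 36 members, among them Itga6, Itgav, Itgb8 and Lama5, or 13.9% (95% Wilson interval 6.08% to 28.7%, counting error only), against 13.2% of 21586 genes of the table. Among those reaching 1 FPKM it was 5 of 23, or 21.7%, against 17.9% of 13399. Of these 4 genes, Itgb8 was at least 2-fold higher in induced cells at day 4, the day of the ChIP, with Itgav at 0.96, and Itga6 and Lama5 had differences of 0.27 and -0.58. Counting peaks inside the gene or within 10 kb of it gave 11 of 23 expressed members against 27.8% of expressed genes. Integrin and laminin genes are long, with a median of 77698 bases over these members and 22365 over expressed genes, and the part of length in that count was not tested. The 36 distinct peaks around members held ATGCAT in 7 (19.4%) and the octamer in 1 (2.78%), shares near those of all peaks.

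**Figure D5:**
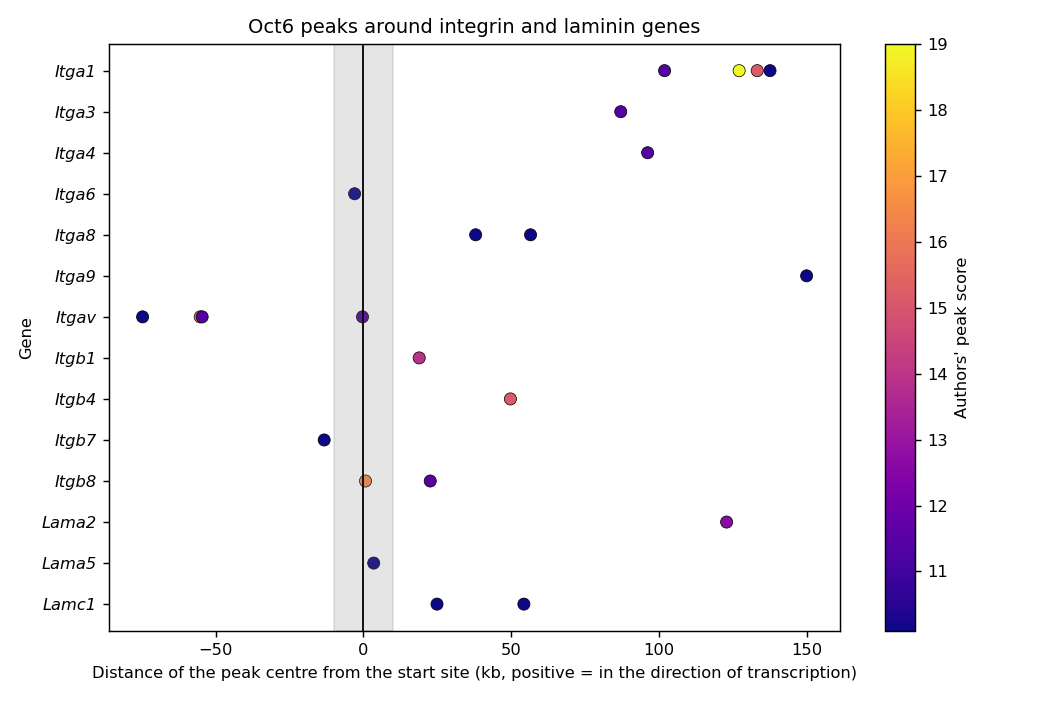
Distance of Oct6 peak centres from the start site of 14 members with 1 FPKM or more that have a peak in the windows searched, in kb, with the authors' peak score as colour and the grey band marking 10 kb on either side. Itga6, Itgav, Itgb8 and Lama5 have a peak in the band, the 4 peaks of Itga1 lie far inside the gene, and 1 peak of Lama2 at 421017 bases is outside the plotted range.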

How the data were processed

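The build mm9 and the tools HOMER, Cuffdiff, Cufflinks (1.3.0) and TopHat (1.4.1) are named in the submitters' processing notes; settings, strand and multi-mapping treatment are not given in the sources used here. The authors deposited FPKM values in 1 table of gene symbols by library and a peak list whose score is the authors' own. Groups came from the sample titles. The members, gene lists and tests were chosen with earlier results of these data known. Named genes were the members, Pou3f1 and, per list, up to 4 genes with the largest difference on any day; markers were named from fixed lists. An FPKM of 0 is reported as listed. 1 member enters the counts but is not reported here.

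Values were taken as log2(FPKM + 1), which understates folds of weak genes. Tests used limma 3.58.1 in R 4.3.3 (lmFit, eBayes with trend, Benjamini-Hochberg over the 13661 genes that reach 1 FPKM somewhere): arm with day as a block, arm by numeric day (2 residual degrees of freedom each), and numeric day with arm (3). The fits were tested on simulated data. Gene positions came from GENCODE on NCBIM37, which matched 95.7% of symbols and all 36 members; all 7965 peaks on its chromosomes ended within them, and 14 on other contigs were not used for motifs. Flanks began 500 bases from each peak edge. Tables were handled with pandas 2.3.3 and numpy 2.4.6 under Python 3.11.15, intervals with scipy 1.17.1, and plots with matplotlib 3.10.9. Alternatives (pseudocount, filter, scaling, fold limit, fits without 1 day, peak window) are given in the closing section.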

Additional observations from a re-analysis of the deposited data

How the results depend on the processing

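No paired analysis was possible because each arm and day has 1 library and the labels give no replicate numbers; the day block is part of the test itself. Of the single differences of members recomputed with a pseudocount of 0.1 or other scaling, 195 moved by less than 1 SD over the days, 12 by more, and no 2-fold difference changed sign. Median ratio scaling and quantile normalisation moved the median of all genes at day 2 from 0.16 to 0.04 and -0.03. Member counts kept to a factor of 1.5 except as follows. With a 3-fold limit, 6 members instead of 11 were higher at day 2, 0 instead of 2 lower at day 6, 5 instead of 12 higher from day 2 to 6 in control and 5 instead of 8 lower in induced cells. With a 1.5-fold limit, 3 were lower at day 4, 2 higher and 7 lower at day 6, and from day 2 to 6 there were 4 lower in control and 5 higher in induced cells. A pseudocount of 0.1 gave 1 lower at day 4, 2 lower in control and 4 higher in induced cells from day 2 to 6, and quantile normalisation gave 3 lower in control. A minimum of 5 FPKM left 2 higher at day 4, and 6 higher and 0 lower in control from day 2 to 6. Over all genes, the test of the arms called 3, and 1 with a pseudocount of 0.1, 0 without a filter, 1 from 5 FPKM, 15 after quantile normalisation and 0 without day 2, 4 or 6; under each of these 0 members were called. The day trend called 1388 genes as rising and 677 as falling, 455 and 293 without a filter, and 1056 falling after quantile normalisation; of members it called 5, 0 without a filter and 3 from 5 FPKM. Peaks were near 13 members within 50 kb, 21 within 100 kb, 14 by gene body and 2 with a score at or above the median. Beyond the number of genes tested, the cause of these shifts was not tested. Depth was read only relative to control day 2, so no counting interval stands beside an FPKM.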
